A study of Arabidopsis thaliana with 9 samples.

Results

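The histone genes of Arabidopsis thaliana were described class by class in RNA sequencing libraries of 7-day-old seedlings. The 41 genes were chosen by their locus identifiers, as a list of genes for the histones H3.1, H3.3, H4, H2A (with the variants H2A.X, H2A.W and H2A.Z), H2B and H1. Of these, 37 were among the 26984 named genes of the files, and all 37 passed the minimum of 1 FPKM in 3 of the 9 libraries. FPKM is a transcript level scaled by the length of the transcript and by the mapped fragments of the library. The other 4, AT1G09200 and AT3G27360 (H3.1) and AT4G40030 and AT4G40040 (H3.3), were not analysed here, so H3.1 is represented by 3 genes and H3.3 by 1. The seedlings were cop1-6 mutants, plants labelled cor27cor28 and wild-type Col-0, with 3 libraries each, all grown in short days and collected at ZT20, which is 20 hours after lights on. The cop1-6 line carries an allele of COP1, a ubiquitin ligase that removes light-signalling transcription factors in the dark. The cor27cor28 label names 2 mutated genes, COR27 and COR28, whose products are small nuclear proteins made under the control of cold, light and the clock. The labels do not say whether the libraries of a genotype came from separate batches of plants, so the p-values measure the spread between these samples only.

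Histones pack DNA into nucleosomes, each built on a core of H3, H4, H2A and H2B, with the linker histone H1 bound where the DNA enters and leaves. The replication-coupled forms, among them H3.1 and H4, are made mainly in S phase and placed behind the replication fork by the CAF-1 complex. Variants replace them at particular places or times. H3.3 is deposited outside replication over transcribed genes, H2A.Z is inserted by the SWR1 complex near the first nucleosomes of genes, H2A.W marks heterochromatin, and H2A.X is phosphorylated at DNA breaks. In plants, the level of H2A.Z over genes is known for its part in responses to temperature and light.

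Many plant histone promoters hold an octamer, CGCGGATC, known from work on their expression in dividing cells. It was searched on both strands from 250 bases before to 50 bases after the annotated start of each gene in the RefSeq annotation of TAIR10.1. The octamer was in 8 of the 37 histone promoters (21.6%), against 40 of all 27443 protein-coding promoters (0.146%). It occurred in 2 of 3 H3.1 genes, 2 of 8 H4 genes, HTA10 and HTA13 among 4 H2A genes, HTA6 among 3 H2A.W genes and AT1G06760 among 3 H1 genes. No copy was found in the windows of the 10 H2B, 3 H2A.Z and 2 H2A.X genes or of the H3.3 gene. A second motif, CCGTCGAT or CCGTTGAT on either strand, was chosen after the promoter letters had been read. Its share among the histone promoters is therefore no independent finding. The second motif was in 17 of the 37 windows (45.9%), against 379 of all promoters (1.38%), and in all 8 windows with an octamer. Both motifs together were in 9 promoters of the whole annotation (0.0328%), and 8 of these belong to the 37 histone genes. The E2F-type letters TTTCCCGC or TTTGGCGC were in 2 histone windows, those of the H4 genes AT3G46320 and AT3G45930, against 331 of all promoters (1.21%). The octamer and the second motif can share end bases, and a match describes the letters only. The 5 stretches below, of the 8 windows with both motifs, are those in which the second motif follows an octamer on the strand of the gene, and they let the spacing be compared between classes. They are written 5′ to 3′ on the strand of the gene, with the octamer and the second motif in capitals.
AT5G65360, H3.1, chr5:26120664-26120743, minus strand: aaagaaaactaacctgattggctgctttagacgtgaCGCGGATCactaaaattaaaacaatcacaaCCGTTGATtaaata
AT5G10400, H3.1, chr5:3271034-3271113, minus strand: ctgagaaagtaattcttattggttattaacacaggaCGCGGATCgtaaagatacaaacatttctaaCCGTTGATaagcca
AT5G59690, H4, chr5:24051367-24051446, plus strand: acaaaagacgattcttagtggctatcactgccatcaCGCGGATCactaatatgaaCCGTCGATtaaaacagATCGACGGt
HTA10, H2A, chr1:18926731-18926810, plus strand: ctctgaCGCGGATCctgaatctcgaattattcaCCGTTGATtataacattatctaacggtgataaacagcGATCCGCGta
HTA6, H2A.W, chr5:24116293-24116372, minus strand: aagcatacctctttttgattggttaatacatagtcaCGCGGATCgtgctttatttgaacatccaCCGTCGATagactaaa
The octamer began 126 bases before the start of AT5G65360, 120 before AT5G10400, 116 before HTA6, 71 before AT5G59690 and 74 before HTA10. The other 3 windows had another arrangement. In AT1G07660 (H4) the second motif, 174 bases before the start, lay upstream of the octamer at 126. In HTA13 and AT1G06760 the octamer was on the opposite strand, 68 and 28 bases before the start, and the second motif lay farther upstream, at 104 and 82. HTA10 held another octamer on the opposite strand, 10 bases before its start, and AT5G59690 another copy of the second motif on the opposite strand.

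The genes of a class differ in how far they can be told apart by sequencing. The 8 H4 genes encode 1 protein of 103 residues, and the 5 listed H3.1 genes encode 1 protein of 136 residues, which differs from that of AT5G10980 (H3.3) at 4 positions. Among the H4 genes, AT1G07660 and AT1G07820 share 98.1% of their coding bases, AT3G46320 and AT3G45930 share 97.4%, and AT5G59690 and AT5G59970 share 97.1%. The sources used here do not give how reads matching both genes of such a pair were assigned, so the values of these 6 genes are uncertain one by one. AT5G02570 (H2B) lies on the opposite strand within HTA12 (H2A.W), with 522 shared bases. HTA3, HTA13, HTA9, HTB9, AT1G06760 and AT2G30620 overlap other annotated genes on the opposite strand, by 21 bases in HTA9 and by up to 484 bases in AT1G06760. The sources used here do not say whether counting used strand, so reads of such pairs cannot be told apart.

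FPKM summed to between 515929 and 532655 in the cop1-6 libraries, between 548055 and 562621 in those labelled cor27cor28 and between 584878 and 612462 in wild type. Libraries of a genotype correlated at r of 0.978 to 0.991 across genes, those of different genotypes at 0.931 to 0.979. The cop1-6 library 3 stood apart in 283 genes at least 2-fold above both other cop1-6 libraries, against 24 to 74 genes in the other 8 libraries, and was the lowest of the 3 for 26 of the 37 histone genes. Wild-type library 2 was the highest of its group for 29 of the 37 and library 1 of the cor27cor28 group for 26. Without cop1-6 library 3, and likewise without wild-type library 2, 27 histone genes were lower in cop1-6 than in wild type, beside 30 with all libraries. COR27 goes against its label: the libraries labelled cor27cor28 held 48.0, 50.1 and 47.9 FPKM of it, against 12.5, 17.4 and 16.2 FPKM in wild type. COR28 was not called different between them. COP1 was not analysed here.

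Transcript levels ranged widely among the histone genes. In wild type AT5G10980 (H3.3) averaged 187.2 ± 9.69 FPKM (SD, n = 3). HTB4 (H2B) followed at 174.9 ± 17.5 FPKM, then HTA9 (H2A.Z) at 172.9 ± 21.4 FPKM and AT5G59690 (H4) at 158.8 ± 27.4 FPKM. The ranges of these 4 overlapped across libraries, and their order was not tested. Within each wild-type library AT5G10980 was the highest of the 4 and AT5G59690 the lowest, whereas HTB4 and HTA9 changed order. At the other end were HTA12 (H2A.W), with 3.25 to 4.10 FPKM in wild type, and the H2B genes AT3G09480, with 0.738 to 1.62 FPKM, and AT5G02570, with 0.549 to 1.15 FPKM.

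**Figure D1:**
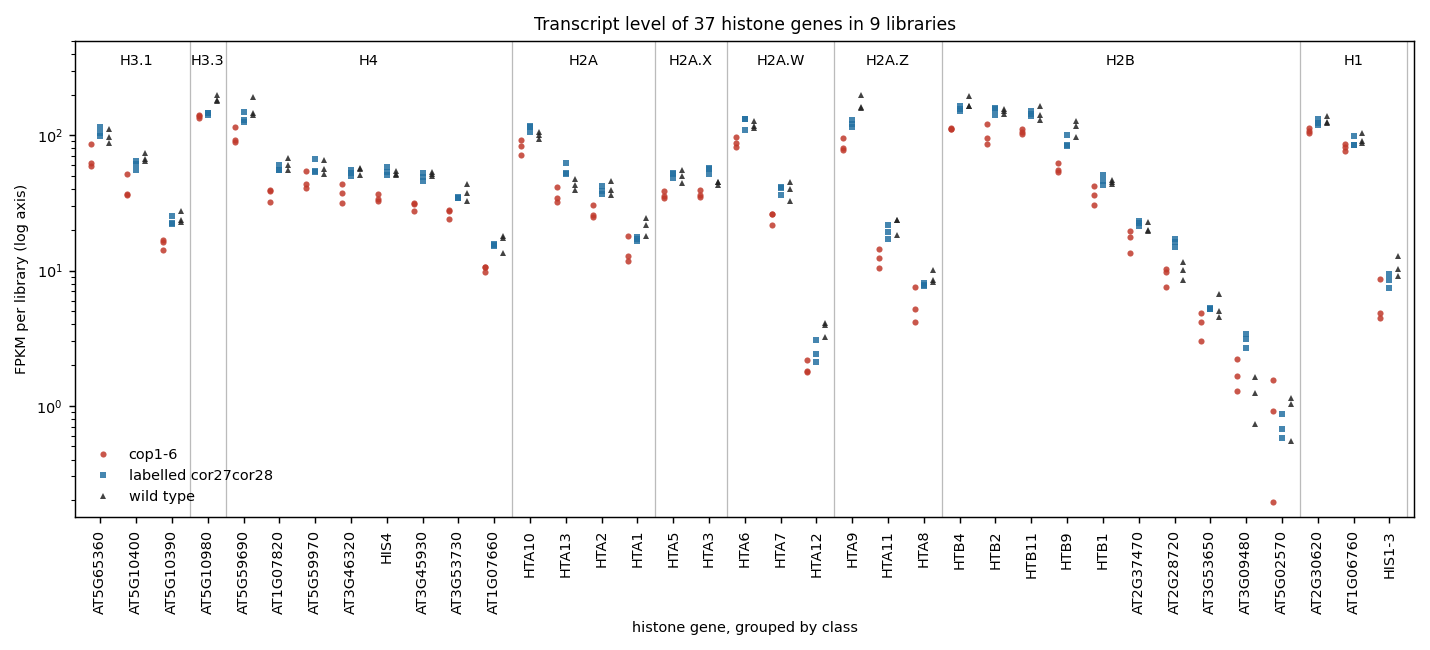
FPKM of each of the 37 histone genes (log axis) in the 9 libraries, genes grouped by class and ordered within a class by their wild-type mean. Each symbol is 1 library: circles cop1-6, squares the libraries labelled cor27cor28, triangles wild type. HTA9 lies between 78.0 and 94.9 FPKM in cop1-6, below every other library.

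Most histone transcripts were lower in cop1-6 than in wild type as deposited, and 13 of 37 with median-of-ratios scaling. Of the 37 genes, 30 were lower and none was higher at an adjusted p under 0.05 (limma), where 38.6% of all 17075 tested genes were lower and 10.9% higher. At an unadjusted p under 0.05, 34 were lower and still 0 higher. The median log2 difference was −0.55 over the histone genes and −0.21 over all tested genes. Because most of the transcriptome read lower in cop1-6 on the deposited scale, the call count depended on scaling. When the libraries were aligned by median-of-ratios scaling, the median of all genes lay at 0.01 and 13 histone genes were lower, against 20.5% of all genes. With equal FPKM totals the median of all genes lay at −0.05 and 23 of 36 were lower, against 23.6% of all genes. The share of all calls that were lower was 77.9% as deposited, 57.4% with equal totals and 47.7% after median-of-ratios scaling. The histone median lay below the median of all genes on each scale, at −0.33 relative to it as deposited, −0.31 with equal totals and −0.30 after median-of-ratios scaling. In bulk tissue, fewer cells of a type and less RNA per cell cannot be told apart.

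The gene with the lowest adjusted p was HTA9, which encodes most of the H2A.Z transcript. HTA9 had 78.0, 94.9 and 80.2 FPKM in cop1-6, against 159.3, 197.6 and 161.9 FPKM in wild type. Every cop1-6 library lay below every wild-type library, and the difference was −1.02 ± 0.10 on the log2 scale (SE, adjusted p = 5.49e-06), a 2.05-fold lower mean. HTA11, the second H2A.Z gene, had 12.4, 14.4 and 10.5 FPKM in cop1-6, against 23.8, 23.8 and 18.5 FPKM in wild type, without overlap (−0.78 ± 0.13, adjusted p = 0.000439). HTA8, the least abundant, had 4.18, 7.61 and 5.18 FPKM in cop1-6, against 8.29, 10.1 and 8.56 FPKM in wild type (−0.61 ± 0.16, adjusted p = 0.0068). HTA9 and HTA11 were lower under all 3 scalings, as were 20.4% of all tested genes, and HTA8 did not pass with median-of-ratios scaling.

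Replication-coupled H3.1 and H4 fell in cop1-6 on the deposited scale, with 3 of 3 and 8 of 8 genes lower, while 2 of 3 and 5 of 8 passed with median-of-ratios scaling. Beside them, 38.6% of all tested genes were lower as deposited and 20.5% with median-of-ratios scaling. AT5G10400 (H3.1) had 36.8, 51.8 and 36.4 FPKM in cop1-6, against 66.9, 74.0 and 64.6 FPKM in wild type (−0.72 ± 0.12, adjusted p = 0.000404). Its neighbour AT5G10390, on the same strand 578 bases away, had 16.9, 16.3 and 14.3 FPKM in cop1-6, against 22.8, 27.8 and 23.7 FPKM in wild type (−0.61 ± 0.10, adjusted p = 0.000328). In both genes the groups did not overlap. Among the H4 genes the differences ran from −0.75 (AT3G45930) to −0.33 (AT5G59970), and the values of AT5G59970 overlapped between the groups. The AT3G45930 transcript had 31.7, 31.3 and 27.7 FPKM in cop1-6, against 49.6, 51.6 and 53.1 FPKM in wild type (adjusted p = 1.32e-05). HIS4, an H4 gene with no close copy among the others, had 32.4, 36.7 and 34.1 FPKM in cop1-6, against 51.3, 54.8 and 51.1 FPKM in wild type (−0.59 ± 0.08, adjusted p = 5.66e-05). The coding bases of HIS4 match those of the closest other H4 gene at 82.7%.

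The single H3.3 gene, AT5G10980, had 138.6, 142.3 and 134.4 FPKM in cop1-6, against 182.8, 198.3 and 180.5 FPKM in wild type. The groups were apart and the difference was −0.43 ± 0.07 (adjusted p = 0.000195), a call that was lost with median-of-ratios scaling (−0.17, adjusted p = 0.119). All 3 H2A.W genes and both H2A.X genes were lower as deposited, while 2 of 3 and 0 of 2 passed with median-of-ratios scaling (limma; for H2A.X 0 also at an unadjusted p under 0.05). The shares of all tested genes that were lower were 38.6% as deposited and 20.5% with median-of-ratios scaling. HTA7 (H2A.W) had 26.2, 26.2 and 21.7 FPKM in cop1-6, against 39.7, 45.4 and 32.5 FPKM in wild type (−0.64 ± 0.12, adjusted p = 0.000812). The H2A.X gene HTA3 had 39.3, 35.0 and 36.4 FPKM in cop1-6, against 42.6, 45.1 and 45.3 FPKM in wild type (−0.26 ± 0.08, adjusted p = 0.0122), and its difference was near zero (−0.005) with median-of-ratios scaling. Among the H2A genes, 3 of 4 were lower and HTA13 was not called (−0.26, adjusted p = 0.063). None of the 4 passed with median-of-ratios scaling (limma), with 1 lower at an unadjusted p under 0.05.

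Among the 10 H2B genes the abundant ones were called and the rare ones were not. The 5 genes with a mean of 45.2 FPKM or more in wild type, HTB1, HTB2, HTB4, HTB9 and HTB11, were lower in cop1-6 as deposited. HTB4 and HTB9 were lower under all 3 scalings. Beside these counts, 38.6% of all tested genes were lower as deposited. Under all 3 scalings 20.4% were lower, and the 2 of 10 H2B genes are near that share. HTB9 had 62.0, 55.4 and 53.4 FPKM in cop1-6, against 118.1, 127.9 and 96.5 FPKM in wild type, with no overlap (−0.98 ± 0.11, adjusted p = 1.53e-05). None of the 5 genes at or below 20.8 FPKM in wild type was called (limma), and 2 of them were lower at an unadjusted p under 0.05, with AT2G37470 nearest to a call (adjusted p = 0.0528). Of these, AT2G28720 had 10.2, 7.50 and 9.78 FPKM in cop1-6, against 10.1, 8.51 and 11.6 FPKM in wild type, and its 95% interval of the log2 difference was −0.41 to 0.16. AT3G09480 was the only histone gene with a positive difference as deposited, 0.31 ± 0.18 (adjusted p = 0.173), whereas with median-of-ratios scaling AT2G28720, AT5G02570, AT1G06760 and AT2G30620 were positive too (0.11, 0.04, 0.06 and 0.006, none called). The pseudocount of 1 FPKM understates the differences of the rarest of these genes.

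Linker histones had the class median nearest to zero on the deposited scale, −0.25 over 3 genes. AT2G30620, the most abundant H1 gene, had 113.5, 103.6 and 107.6 FPKM in cop1-6, against 125.3, 138.7 and 123.9 FPKM in wild type (−0.25 ± 0.07, adjusted p = 0.0132), and the sign turned with median-of-ratios scaling (0.006, adjusted p = 0.961). AT1G06760 was not called (−0.20, adjusted p = 0.0783). HIS1-3, an H1 variant known to be induced by drought, had 4.49, 8.64 and 4.84 FPKM in cop1-6, against 12.8, 9.06 and 10.2 FPKM in wild type (−0.78 ± 0.19, adjusted p = 0.00534), a call lost with median-of-ratios scaling.

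Lower under all 3 scalings in cop1-6 were 13 histone genes, where 20.4% of all tested genes met the same condition. They were AT5G10390 and AT5G10400 (H3.1), HIS4, AT1G07660, AT1G07820, AT5G59690 and AT3G45930 (H4), HTA7 and HTA12 (H2A.W), HTA9 and HTA11 (H2A.Z), and HTB4 and HTB9 (H2B). HTA12 carries the overlap with AT5G02570 named above, and HTA9 and HTB9 also overlap genes on the opposite strand. AT1G07660, AT1G07820, AT5G59690 and AT3G45930 belong to the close H4 pairs, whose values are uncertain one by one. As deposited, all 9 analysed genes of the variants H3.3, H2A.X, H2A.W and H2A.Z were lower (median −0.61), beside 38.6% of all genes. So were 6 of the 7 H3.1 and canonical H2A genes (median −0.55) and the 8 H4 genes (median −0.60). With median-of-ratios scaling, 20.5% of all genes were lower. The variant genes that passed there were 2 of H2A.W and 2 of H2A.Z. Of the others 2 H3.1 and 5 H4 genes passed, and none of canonical H2A. The difference between these groups of genes was not tested.

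**Figure D2:**
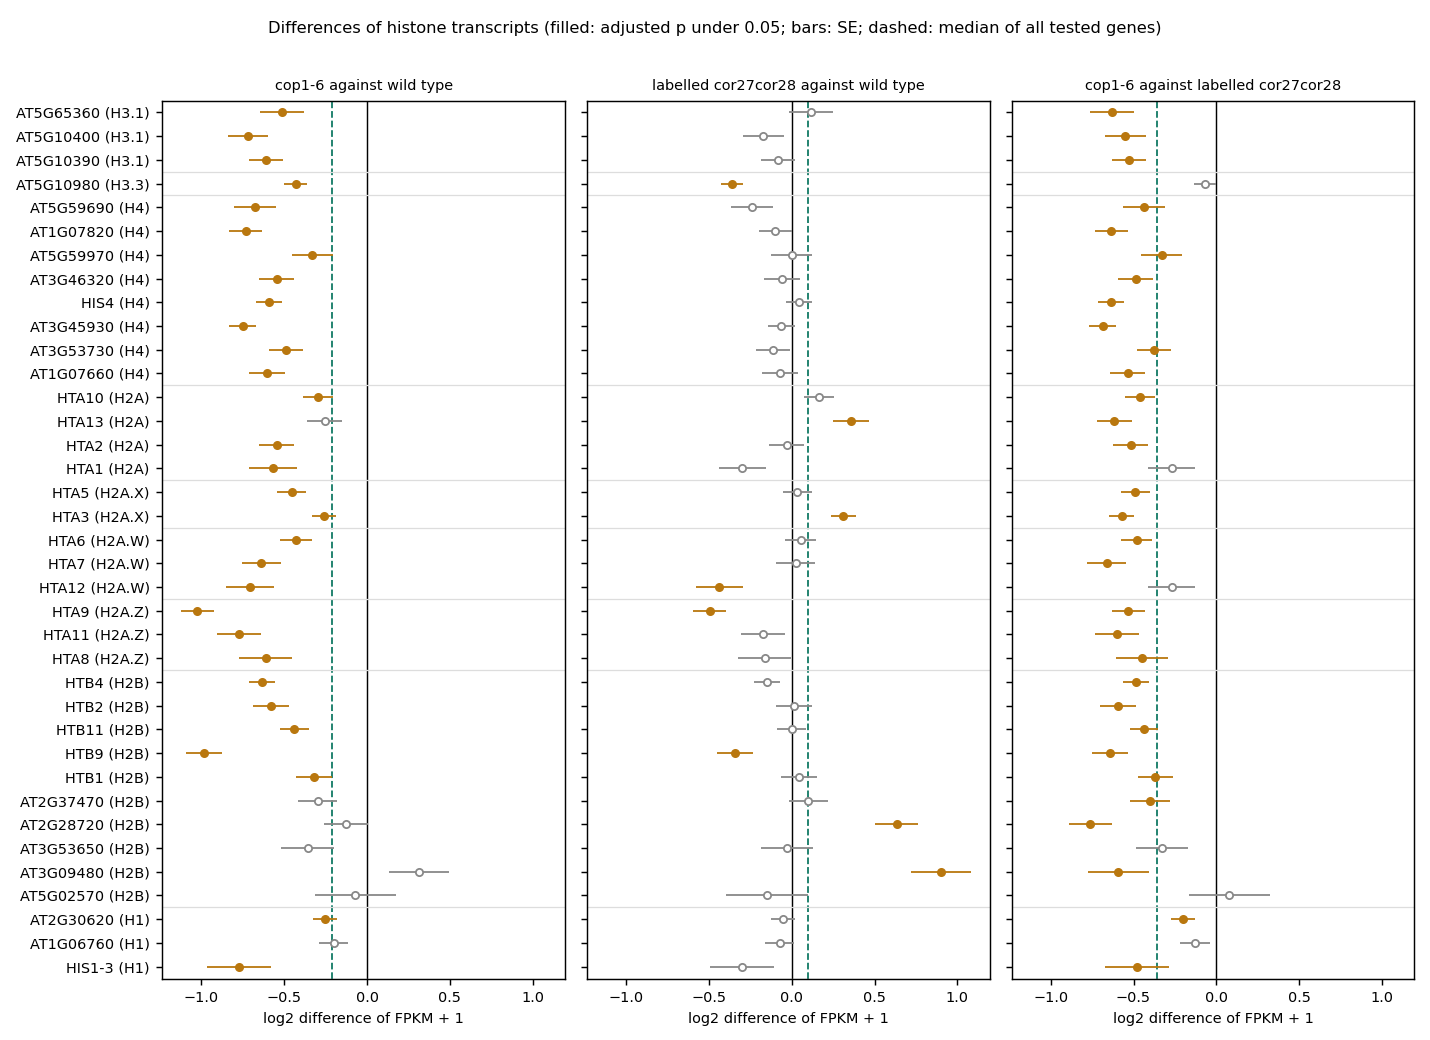
Log2 differences of FPKM + 1 with their standard errors for the 37 histone genes in 3 comparisons, filled where the adjusted p is under 0.05, with the median of all tested genes dashed. In cop1-6 against wild type 30 genes are lower, and 13 are lower after median-of-ratios scaling.

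In the libraries labelled cor27cor28, most histone transcripts lay near wild type and 8 of 37 were called. As deposited, 4 were higher, where 14.6% of all tested genes were higher, and 4 were lower, where 7.29% were. The histone median was −0.06, against 0.10 over all genes, and relative to that of all genes it lay at −0.16 as deposited, −0.15 with equal totals and −0.18 after median-of-ratios scaling. The higher genes were the H2B genes AT3G09480 and AT2G28720, HTA13 (H2A) and HTA3 (H2A.X). The lower ones were HTA9 (H2A.Z), HTA12 (H2A.W), AT5G10980 (H3.3) and HTB9 (H2B). With median-of-ratios scaling 2 were higher and 4 lower, against 7.36% and 12.5% of all genes, and with equal totals 5 of 36 were higher and 2 lower, against 25.3% and 4.93%. Of all calls 33.3% were lower as deposited, 16.3% with equal totals and 62.8% after median-of-ratios scaling.

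The H2A.Z gene HTA9 had values of 129.6, 121.2 and 115.2 FPKM in the libraries labelled cor27cor28, against 159.3, 197.6 and 161.9 FPKM in wild type, without overlap (−0.49 ± 0.10, adjusted p = 0.0054). AT5G10980 had levels of 147.2, 141.6 and 146.8 FPKM in the libraries labelled cor27cor28, against 182.8, 198.3 and 180.5 FPKM in wild type, also without overlap (−0.36 ± 0.07, adjusted p = 0.00321). These 2 were lower under all 3 scalings, as were 4.92% of all tested genes. HTB9 overlapped between the groups (adjusted p = 0.0425), and both it and HTA12 (adjusted p = 0.0475) lost the call with equal totals.

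The H2B gene AT2G28720 had levels of 16.3, 14.9 and 17.1 FPKM in the libraries labelled cor27cor28, against 10.1, 8.51 and 11.6 FPKM in wild type (0.63 ± 0.13, adjusted p = 0.00593). AT3G09480, another H2B gene of low level, had levels of 3.41, 3.14 and 2.68 FPKM in the libraries labelled cor27cor28, against 0.738, 1.62 and 1.25 FPKM in wild type (0.90 ± 0.18, adjusted p = 0.00515). The groups of both genes did not overlap, and both were higher under all 3 scalings, as were 7.35% of all tested genes. HTA3 and HTA13 were higher as deposited (0.31 and 0.36) but not with median-of-ratios scaling (adjusted p = 0.143 and 0.181). Of the 14 H3.1, H4 and H1 genes none was called (limma) on any of the 3 scales, and 0 also at an unadjusted p under 0.05 except 1 H4 gene that was lower with median-of-ratios scaling. Among the H4 genes the 95% intervals of the log2 difference reached from −0.51 at the lowest (AT5G59690) to 0.27 at the highest (AT5G59970). Without library 2 of the cor27cor28 group 2 genes were higher and 2 lower, and without wild-type library 2 there were 2 lower.

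Set directly against the libraries labelled cor27cor28, cop1-6 had lower values for 31 of the 37 histone genes as deposited and none higher (limma; 31 and 0 also at an unadjusted p under 0.05). With median-of-ratios scaling 2 were lower and 1 higher. On the deposited scale 56.6% of all tested genes were lower and 9.19% higher, so the histone count stands beside a majority of the transcriptome. The medians were −0.49 for histone genes and −0.36 for all genes, and with median-of-ratios scaling 14.1% of all genes were lower. With equal totals 27 of 36 histone genes were lower, against 44.6% of all genes. AT3G45930 (H4) and AT2G28720 (H2B) were lower under all 3 scalings, as were 14% of all genes, and the differences were −0.69 ± 0.08 and −0.76 ± 0.13 as deposited (adjusted p = 3.08e-05 and 0.000424). Lower calls made up 86% of all calls as deposited, 80.5% with equal totals and 42.1% after median-of-ratios scaling. Relative to the median of all genes the histone median lay at −0.12, −0.11 and −0.08 on these scales.

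AT5G10980 (H3.3) was not called here as deposited. Its difference was −0.07 ± 0.07 (adjusted p = 0.374, 95% interval −0.21 to 0.08) as deposited and turned to 0.33 (adjusted p = 0.01) with median-of-ratios scaling, where it was the only histone gene called higher and 19.4% of all genes were. HTA9 differed by −0.53 ± 0.10 as deposited (adjusted p = 0.000786), a call lost with median-of-ratios scaling (−0.14, adjusted p = 0.433). Both mutant comparisons with wild type use the same 3 wild-type libraries, so they are not independent. On the deposited scale the log2 differences of cop1-6 from wild type were −1.02 for HTA9, −0.98 for HTB9, −0.43 for AT5G10980 and −0.75 for AT3G45930. Those of the libraries labelled cor27cor28 were −0.49 for HTA9, −0.34 for HTB9, −0.36 for AT5G10980 and −0.06 for AT3G45930.

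**Figure D3:**
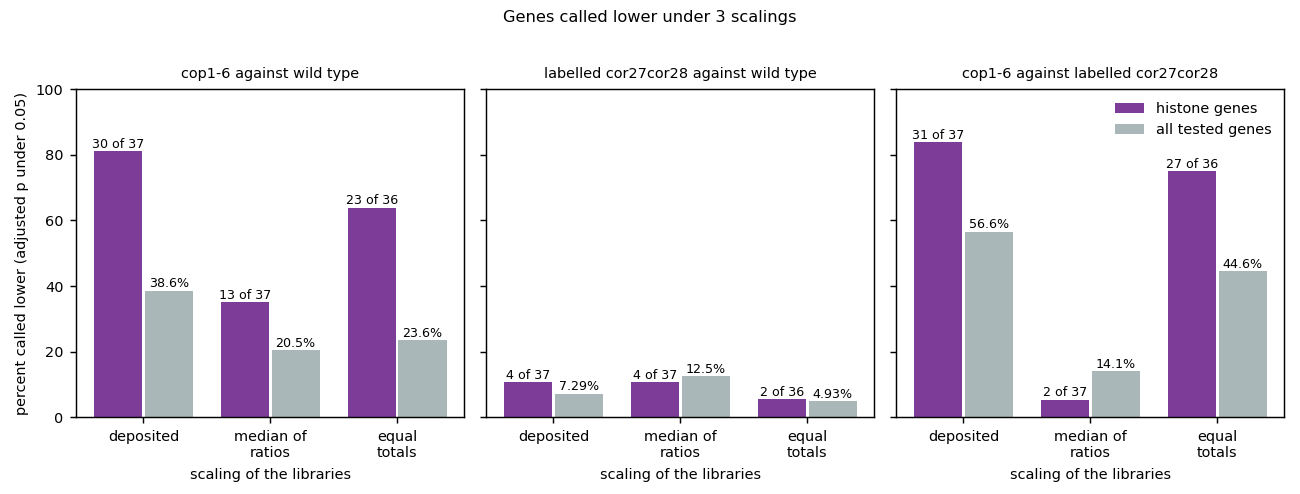
Percent of histone genes (purple) and of all tested genes (grey) called lower at an adjusted p under 0.05 in 3 comparisons, under the deposited scaling, median-of-ratios scaling and equal totals, with the histone counts above the bars. In cop1-6 against wild type the histone share exceeds that of all genes in each scaling, while in cop1-6 against the libraries labelled cor27cor28 it is 2 of 37 beside 14.1% with median-of-ratios scaling.

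Shares within a library do not depend on how libraries are scaled. The 3 H2A.Z genes made up 21.2%, 24.0% and 22.9% of the summed FPKM of the 12 H2A-family genes in cop1-6, and 23.8%, 23.8% and 21.6% in the libraries labelled cor27cor28. In wild type they made up 29.0%, 32.5% and 30.1%. Every library of both mutants lay below every wild-type library, with means of 22.7 ± 1.41% in cop1-6, 23.1 ± 1.27% in the libraries labelled cor27cor28 and 30.6 ± 1.76% in wild type (SD, n = 3 each). Canonical H2A held 35.4 ± 1.26% in cop1-6, 34.7 ± 0.867% in the libraries labelled cor27cor28 and 30.8 ± 0.913% in wild type. Its lowest mutant value (33.9%) was above its highest wild-type value (31.8%). H2A.X held 16.3 ± 1.86% in cop1-6, 16.5 ± 0.984% in the libraries labelled cor27cor28 and 14.2 ± 1.01% in wild type. H2A.W held 25.6 ± 0.37% in cop1-6, 25.7 ± 1.31% in the libraries labelled cor27cor28 and 24.4 ± 1.65% in wild type. For both of these classes cop1-6 overlapped wild type. HTA9 alone was 82.4 ± 1.25% of the H2A.Z sum in cop1-6, 81.8 ± 0.45% in the libraries labelled cor27cor28 and 84.8 ± 1.34% in wild type. The shares are given with no test.

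**Figure D4:**
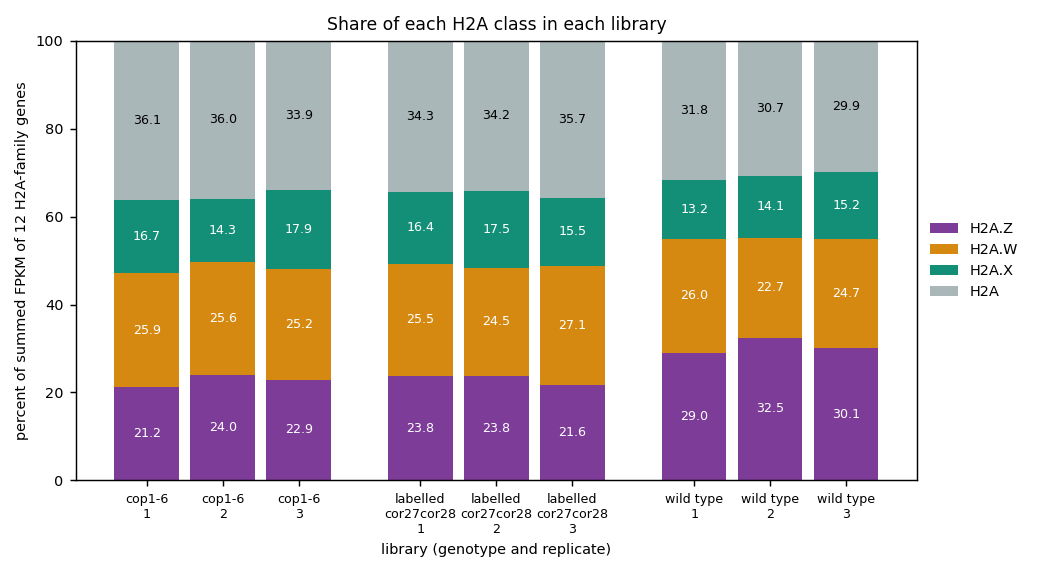
Percent of the summed FPKM of 12 H2A-family genes held by H2A.Z, H2A.W, H2A.X and canonical H2A in each of the 9 libraries, stacked to 100. H2A.Z ranges from 21.2% to 24.0% in the 6 mutant libraries and from 29.0% to 32.5% in wild type.

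The share of AT5G10980 (H3.3) among the 4 analysed H3 genes was 54.5%, 48.1% and 55.0% in cop1-6, 42.2%, 44.3% and 43.5% in the libraries labelled cor27cor28 and 49.6%, 48.2% and 50.7% in wild type. The libraries labelled cor27cor28 were below all others, whereas cop1-6 overlapped wild type. Within H2B, HTB9 held 12.8 ± 1.16% in cop1-6, 14.0 ± 0.787% in the libraries labelled cor27cor28 and 17.0 ± 1.23% in wild type. Within H4 the largest share belonged to AT5G59690, with 30.7 ± 1.3% in cop1-6, 29.3 ± 0.71% in the libraries labelled cor27cor28 and 32.2 ± 2.19% in wild type. Over all 37 genes, histones made up 0.321 ± 0.0268% of library FPKM in cop1-6, 0.412 ± 0.0185% in the libraries labelled cor27cor28 and 0.408 ± 0.0224% in wild type.

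DNA replication was followed by 28 tested genes of a companion list. In cop1-6 7 of them were lower than in wild type, beside 38.6% of all genes, and 1 was higher, beside 10.9%. Their median was −0.19, beside −0.21 for all genes. With median-of-ratios scaling 1 was lower, beside 20.5% of all genes, and 1 higher. TK1a, a thymidine kinase, averaged 8.59 ± 0.857 FPKM in cop1-6 and 15.8 ± 2.34 FPKM in wild type (−0.80, adjusted p = 0.000111). PCNA1, the sliding clamp of the fork, averaged 9.39 ± 0.564 FPKM in cop1-6 and 12.8 ± 0.924 FPKM in wild type (−0.41, adjusted p = 0.00239). RNR2A, a small subunit of ribonucleotide reductase, averaged 14.2 ± 1.63 FPKM in cop1-6 and 8.96 ± 1.08 FPKM in wild type and was higher (0.61, adjusted p = 0.000745). In the libraries labelled cor27cor28, 9 of the 28 were higher and none lower than in wild type (limma, median 0.37; 18 and 0 at an unadjusted p under 0.05). Of all genes 14.6% were higher. With equal totals 15 of the 28 were higher, beside 25.3% of all genes, and after median-of-ratios scaling 3, a share near the 7.36% of all genes. RNR1, the large reductase subunit, had the lowest adjusted p (0.55 ± 0.09, adjusted p = 0.00188).

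Chaperones and deposition factors were lower in cop1-6 than in wild type for 9 of 20 genes and higher for none (limma, median −0.27, 10 and 0 at an unadjusted p under 0.05), while with median-of-ratios scaling 3 were lower and 2 higher. The 9 of 20 is near the 38.6% of all genes that were lower, and the 3 of 20 near the 20.5%. NAP1;2, an H2A-H2B chaperone, averaged 91.1 ± 1.14 FPKM in cop1-6 and 142.9 ± 9.68 FPKM in wild type (−0.64 ± 0.07, adjusted p = 1.14e-05). NAP1;1, its paralogue, averaged 37.0 ± 0.652 FPKM in cop1-6 and 56.7 ± 4.12 FPKM in wild type (−0.60 ± 0.08, adjusted p = 5.65e-05), and SSRP1, a subunit of FACT, was also lower (−0.55 ± 0.10, adjusted p = 0.000749). Among the subunits of the H2A.Z exchanger SWR1, ARP6 ranged from 13.3 to 15.6 FPKM in cop1-6 and from 17.0 to 23.0 FPKM in wild type. SEF ranged from 4.23 to 5.05 FPKM in cop1-6 and from 6.28 to 8.59 FPKM in wild type, and PIE1 from 3.03 to 3.98 FPKM in cop1-6 and from 2.84 to 3.99 FPKM in wild type. ARP6 and SEF were lower as deposited (limma, adjusted p = 0.0054 and 0.00473), and PIE1 was not called (adjusted p = 0.767). The libraries labelled cor27cor28 held 19.7 to 24.5 FPKM of ARP6, 7.38 to 9.53 FPKM of SEF and 4.61 to 5.53 FPKM of PIE1. A link between these subunits and the H2A.Z transcripts was not tested. For the libraries labelled cor27cor28, 4 of the 20 were higher and none lower (limma, median 0.23, 9 and 1 at an unadjusted p under 0.05), while 9 were higher with equal totals and 2 higher and 1 lower after median-of-ratios scaling. Of all genes 14.6% were higher as deposited, 25.3% with equal totals and 7.36% after median-of-ratios scaling. Among the 4 were the H2A-H2B chaperones NRP2 (0.50 ± 0.10, adjusted p = 0.00386) and NAP1;3 (0.47 ± 0.09, adjusted p = 0.00467).

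Of 13 mitotic genes, 11 were lower in cop1-6 than in wild type as deposited (median −0.45), 4 with equal totals and none with median-of-ratios scaling (limma, 4 at an unadjusted p under 0.05). Of all genes 38.6% were lower as deposited, 23.6% with equal totals, near the 4 of 13, and 20.5% after median-of-ratios scaling. CDKB1;1, a mitotic kinase, averaged 3.94 ± 0.314 FPKM in cop1-6 and 6.11 ± 0.587 FPKM in wild type (−0.53 ± 0.12, adjusted p = 0.0029). Of the 13, only the cyclin CYCB1;1 was higher in the libraries labelled cor27cor28 as deposited (0.48 ± 0.16, limma, adjusted p = 0.0494), beside 14.6% of all genes. That call was lost with median-of-ratios scaling. Of 5 endocycle regulators 2 were lower in cop1-6 and 1 higher, with 1 of each after median-of-ratios scaling. The lower counts are near the 38.6% and 20.5% of all genes that were lower on these scales. As deposited 10.9% of all genes were higher. In the libraries labelled cor27cor28, 1 of the 5 was higher and 1 lower as deposited, beside 14.6% and 7.29% of all genes. The cyclin-kinase inhibitor SIM averaged 9.34 ± 0.546 FPKM in cop1-6 and 19.3 ± 1.75 FPKM in wild type, and its relative LGO 48.6 ± 5.95 FPKM in cop1-6 and 34.0 ± 1.8 FPKM in wild type.

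Markers of cell types were read beside the histone genes. The shoot meristem genes STM and KNAT1 were both lower in cop1-6 under all 3 scalings, at 1.69 ± 0.297 and 6.08 ± 0.445 FPKM, against 3.49 ± 0.155 and 11.3 ± 1.59 FPKM in wild type, whereas WUS and CLV3 were at most 0.147 FPKM in any library. Of all tested genes 20.4% were lower in cop1-6 under all 3 scalings. In the libraries labelled cor27cor28 neither STM nor KNAT1 was called. The root meristem markers PLT1, PLT2 and WOX5 summed to 0.123 to 0.316 FPKM in cop1-6, 0.335 to 0.746 FPKM in the libraries labelled cor27cor28 and 0.156 to 0.625 FPKM in wild type, and were below the minimum for testing. The 6 markers of differentiated root tissue summed to 0.382 to 1.26 FPKM in cop1-6, 16.9 to 23.3 FPKM in the libraries labelled cor27cor28 and 25.4 to 32.5 FPKM in wild type. All 5 that were tested were lower in cop1-6 as deposited, beside 38.6% of all genes. For the libraries labelled cor27cor28 3 of the 5 were lower, beside 7.29% of all genes. With median-of-ratios scaling 5 and 4 of them were lower, beside 20.5% and 12.5% of all genes. CASP5 was listed at 0 in all 3 cop1-6 libraries. The part of these tissues in the histone differences was not tested.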

How the data were processed

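Total RNA of whole seedlings was sequenced in 9 libraries. The deposited values are FPKM, made by the authors per gene and library. Tools listed in the submitters' processing notes are DESeq 1.18.0, Cufflinks, HISAT2 2.2.1.0, TopHat with Bowtie2, Trimmomatic 0.36 and, as genome build, TAIR10, with no role for any tool. The sources used here do not give read depth, so no counting interval was computed. Entries with no gene name (13 per library, 0.000197% to 0.00203% of FPKM) were left out. Genes with at least 1 FPKM in 3 libraries (17075) were tested on log2(FPKM + 1), which understates changes of low genes, with limma 3.58.1 in R 4.3.3, a variance trend and all 9 libraries in 1 fit. Benjamini-Hochberg adjustment ran over all tested genes, and an adjusted p under 0.05 is a call. Calling was checked on simulated data in which few genes changed. That check does not bear on a shift of most genes or on the choice of scaling. Alternatives were other pseudocounts, filters, scalings, a replicate block and leaving out each library. The labels state no pairing by replicate number, and the main fit used none. Promoters, coding sequences and symbols came from RefSeq (TAIR10.1), matched by locus identifier. The members and the companion lists were chosen with earlier results of these data known. All histone genes could be named, and in each comparison up to 3 called members per companion list with the lowest adjusted p. The SWR1 subunits were named after their values were seen.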

Additional observations from a re-analysis of the deposited data

How the results depend on the processing

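With median-of-ratios scaling, lower calls fell to 13 in cop1-6 against wild type and to 2 in cop1-6 against the libraries labelled cor27cor28, where 1 gene was higher, and higher calls fell to 2 for the libraries labelled cor27cor28 set against wild type. Lower calls in that comparison were 2 with equal totals and 2 with no filter on low values. Among genes called as deposited or with median-of-ratios scaling, that scaling turned the sign for AT2G30620 in cop1-6 against wild type (0.006), and in cop1-6 against the libraries labelled cor27cor28 for AT5G10980 (0.33), AT3G53730 (0.01), AT5G59970 (0.059), HTB1 (0.021) and AT2G30620 (0.19). The causes were not tested. Leaving out 1 library gave 27 to 33 lower in cop1-6 against wild type, 27 to 31 in cop1-6 against the libraries labelled cor27cor28, and 2 to 4 higher and 2 to 4 lower for the libraries labelled cor27cor28 set against wild type. With the replicate block there were 31 lower in cop1-6 against wild type, and 3 higher and 3 lower in the libraries labelled cor27cor28. Same-numbered libraries deviated together at r of −0.18 to 0.12, differently numbered ones at −0.16 to 0.21. Whether same-numbered libraries shared a batch was not tested. Motif counts before the start alone were 8 for the octamer, against 37 of all promoters (0.135%), and 16 for the second motif, against 297 (1.08%). Depth is unknown, which limits the H2B genes near 1 FPKM.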
